A study of Mus musculus with 4 samples.

Results

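The genes examined were Kit, Flt3, Csf1r, Pdgfra and Pdgfrb, which encode the 5 receptors of the class III tyrosine kinase family, and Kitl, which encodes the ligand of KIT. Their sites were the cytosine positions that the authors' deposited tables list as different between genotypes and that lie inside these genes on build GRCm38 or within 2 kb of either end. This rule selected 49 of 125070 listed sites, of which 12 were among the 53206 sites listed for 5-methylcytosine (5mC) and 37 among the 71864 listed for 5-hydroxymethylcytosine (5hmC). The samples were bone marrow LSK cells, the Lin-negative cells with high Sca-1 and with c-Kit on their surface, a fraction that contains haematopoietic stem and early progenitor cells. They came from HDAC6 KO mice, which lack the X-linked lysine deacetylase HDAC6, and from WT mice, which the sample titles call controls. Each genotype had 1 whole-genome bisulfite library and 1 oxidative bisulfite library, so there are 4 libraries and no replicates. The deleted part of Hdac6, whether the deletion was germline or conditional, and the strain, sex and age of the mice are not stated in the labels. RNA was not measured, so the labelled cell type could not be checked against marker genes.

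Class III receptor kinases sit at the cell surface and pair up when a dimeric ligand binds their extracellular immunoglobulin-like domains, after which the split intracellular kinase domain phosphorylates tyrosines that recruit signalling proteins. KIT maintains haematopoietic stem cells and is the surface protein by which LSK cells are sorted. FLT3 marks the multipotent progenitors that are losing long-term stem cell activity, and CSF1R drives the monocyte and macrophage lineage. PDGFRA and PDGFRB are best known from mesenchymal and perivascular cells, and KIT ligand is made mainly by the stromal and endothelial niche rather than by the stem cells themselves. In mammalian DNA 5mC is found chiefly at CpG dinucleotides, and TET enzymes oxidise it to 5hmC.

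A level is the authors' estimate of the share of molecules carrying the mark at a position, given here in percent, and a difference is the KO level minus the WT level in percentage points. The deposited p-values and q-values compare 1 library with 1 library, and they measure no spread between animals. Every listed site has a p-value under 0.01 and a difference of at least 10 points. Read coverage is not given, so no level has an interval. All 412 listed 5mC positions and all 778 listed 5hmC positions that fell in RefSeq promoter windows of GRCm38.p6 stood at the C of a CpG, which fixes the build of the positions, although the submitters' processing notes name GRCm39.

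5hmC differences were spread over all 6 genes, whereas 5mC differences were listed at 4 of them, Kit, Flt3, Csf1r and Pdgfrb. Of 34610 genes 49.6% held a listed 5hmC site and 42.3% a listed 5mC site. Among 5546 protein-coding genes of the same length range, 25568 to 84802 bp, these shares were 65.9% and 59.8%. Per 100 kb, the windows of the 6 genes held 9.93 listed 5hmC sites and 3.22 listed 5mC sites, against 4.21 and 2.62 in the protein-coding genes of that length range. Pdgfrb had the highest 5hmC density at 25.0 sites per 100 kb, followed by Csf1r at 16.9, Flt3 at 12.2, Kit at 10.5, Pdgfra at 3.93 and Kitl at 1.13. At least 11 listed 5hmC sites, the number in Pdgfrb, were held by 122 of the 5546 genes (2.2%), and at least 9, the number in Kit and in Flt3, by 213 (3.84%). Differences in CpG number and coverage between genes were not adjusted for.

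**Figure D1:**
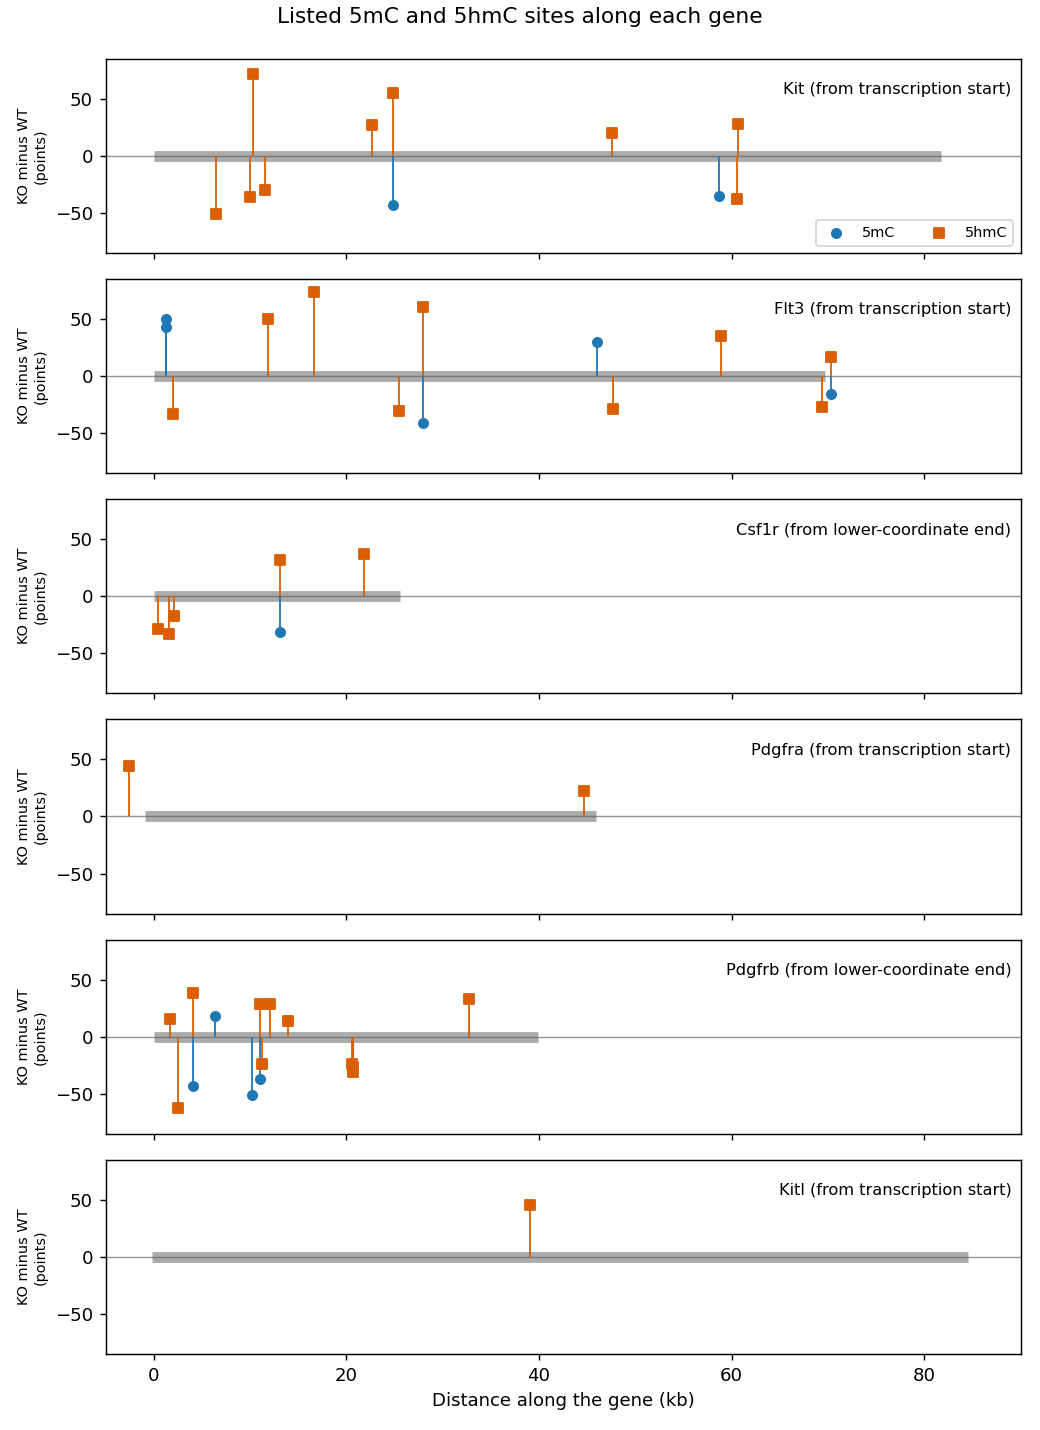
Difference between KO and WT (percentage points) at each listed site, plotted against the distance along the gene in kb, with 5mC as circles and 5hmC as squares; distances run from the transcription start for Kit, Flt3, Pdgfra and Kitl and from the lower-coordinate gene end for Csf1r and Pdgfrb; grey bars mark the genes. Differences of both signs occur along Kit, Flt3, Csf1r and Pdgfrb, and 5mC and 5hmC differences of opposite sign stand at the same place in 6 cases.

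Neither mark differed in a single direction over the 6 genes. 5mC was lower in KO at 8 of the 12 sites, where 59.7% of all listed 5mC sites were lower, and higher at 4, where 40.3% of all were higher. 5hmC was higher in KO at 21 of the 37 sites (56.8%, exact 95% binomial interval 39.5 to 72.9%, counting error only), where 64.4% of all listed 5hmC sites were higher, and lower at 16, where 35.6% of all were lower. Both shares were near the shares over all listed sites. The median difference was -33.41 points for 5mC and 16.22 points for 5hmC, against -23.26 and 22.22 points over all listed sites. These medians pool both directions and so depend on the split between them. Where 5hmC was higher the median was 33.33 points, and where lower -30.3, against 31.25 and -26.19 over all listed sites. For 5mC these medians were 36.43 and -39.05 points, against 34.01 and -37.62. In the authors' deposited tables no site of these genes had a q-value under 0.05. Over all listed sites 0.175% passed that threshold for 5mC and 1.08% for 5hmC. The q-value was 1 at all 12 5mC sites and at 28 of the 37 5hmC sites, and the smallest was 0.316, at a 5hmC site of Pdgfrb. Where 5hmC was higher in KO, the WT level was exactly 0% at 16 of 21 sites, and where it was lower, the KO level was exactly 0% at 12 of 16. These are 76.2% and 75% of the sites, against 81.3% and 84.2% of all listed 5hmC sites, so levels of exactly 0% were not particular to these genes.

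**Figure D2:**
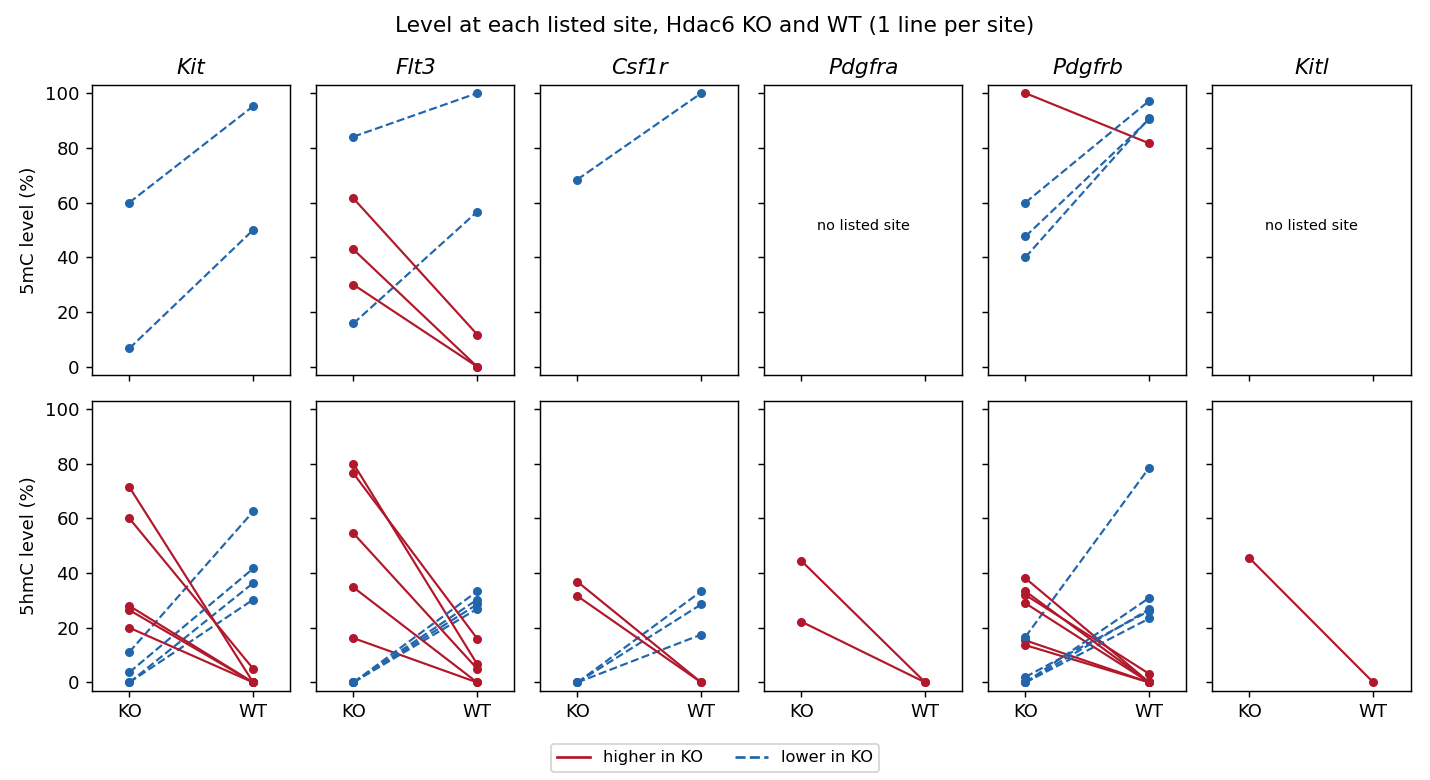
Level of 5mC (top row) and 5hmC (bottom row) in percent at each listed site in KO and WT, with 1 line per site; solid lines are higher in KO and dashed lines lower in KO. The 5hmC lines of Kit, Flt3, Csf1r and Pdgfrb cross because both directions occur, and many start or end at 0%, while Pdgfra and Kitl have no listed 5mC site.

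Kit, the receptor gene for stem cell factor, lies on chromosome 5 from 75574987 to 75656722 on the plus strand. It held 9 listed 5hmC sites, 5 higher and 4 lower in KO, and 2 listed 5mC sites, both lower. All of them lay inside the gene, and none fell in the promoter window. The 250 bases before the transcription start are shown because they are the CpG-rich segment of Kit in which no difference was listed; CpG dinucleotides are in capitals (RefSeq, GRCm38.p6, plus strand, chr5:75574737-75574986).
Kit promoter: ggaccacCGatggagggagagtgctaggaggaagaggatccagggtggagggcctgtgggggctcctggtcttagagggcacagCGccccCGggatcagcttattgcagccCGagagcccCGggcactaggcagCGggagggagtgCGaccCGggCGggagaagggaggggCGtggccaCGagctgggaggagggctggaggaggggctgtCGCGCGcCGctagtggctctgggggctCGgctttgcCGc
These bases hold 17 CpGs, against a median of 6 in the same segment of 32851 RefSeq promoter windows. A listed 5mC site occurred in 1.2% of all promoter windows and a listed 5hmC site in 2.22%, and a CpG that is not listed may have been equal, too shallowly covered or not tested.

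Within Kit, the largest 5hmC difference was at position 75585250, 10.3 kb from the transcription start, with 71.4% in KO and 0% in WT in the authors' deposited table (p = 0.000395, q = 0.763). Only 253 bp before it, at position 75584997, the order was the opposite, with 0% in KO and 36.4% in WT in the authors' deposited table (p = 0.00414, q = 1). The smallest q of the gene belonged to position 75586507, 11.5 kb from the start, which had 0% in KO and 30.3% in WT in the authors' deposited table (p = 0.000272, q = 0.634). Together with position 75581477, at 11.1% in KO and 62.5% in WT in the authors' deposited table, 3 of the 4 sites between 6.49 and 11.5 kb were lower in KO. Of the 5 sites further along, 4 were higher, at 26.5%, 60%, 20% and 28% in KO and at 0%, 5%, 0% and 0% in WT, in the authors' deposited table. The exception was position 75635580, 60.6 kb from the start, which had 3.7% in KO and 41.7% in WT in the authors' deposited table. It stood 78 bp from position 75635658, where the authors' deposited table gave 28% in KO and 0% in WT, so opposite differences stood close together. For 5mC, the authors' deposited table gave 6.67% in KO and 50% in WT at position 75599862 (p = 0.00947) and 60% in KO and 95.2% in WT at position 75633727 (p = 0.00887), both with q = 1.

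Flt3, the receptor gene for FLT3 ligand, lies on the minus strand of chromosome 5 from 147330741 to 147400489. It carried the most 5mC sites of the 6 genes, 5 in all, of which 3 were higher and 2 lower in KO, and 9 listed 5hmC sites, 5 higher and 4 lower. Counted by position, it was the only gene of the 6 with more 5mC sites higher than lower. This rests on 2 higher sites that lie 12 bp apart. Counted as a single place, they would leave no excess of higher sites, and Flt3 would be level with Pdgfrb in its number of 5mC sites. The 250 bases before its transcription start are shown because 2 5mC sites that were higher in KO lay a short way downstream of the start, outside this segment (RefSeq, GRCm38.p6, minus strand, chr5:147400490-147400739, CpGs in capitals).
Flt3 promoter: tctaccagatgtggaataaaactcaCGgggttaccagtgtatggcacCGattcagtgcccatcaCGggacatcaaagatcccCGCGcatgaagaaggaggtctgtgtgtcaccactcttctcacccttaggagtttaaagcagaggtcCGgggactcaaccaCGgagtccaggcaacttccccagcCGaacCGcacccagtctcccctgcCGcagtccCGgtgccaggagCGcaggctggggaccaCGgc
This segment holds 13 CpGs and no listed site. Position 147399171, 1.32 kb downstream of the transcription start, had 61.5% 5mC in KO and 11.8% in WT (p = 0.00689, q = 1, the authors' deposited table). Position 147399183, 12 bp away, had 42.9% 5mC in KO and 0% in WT (p = 0.00506, q = 1, the authors' deposited table). Both sites were thus little methylated in WT and higher in KO, but they are close enough to share reads and do not count as separate measurements. A 5hmC site 2.03 kb from the start, at position 147398460, was at 0% in KO and 33.3% in WT in the authors' deposited table (p = 0.00894, q = 1). These 3 positions also fall within 2 kb of, or inside, the non-coding gene Gm26597.

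Deeper in Flt3 stood the largest 5hmC difference of the 6 genes. At position 147383846, 16.6 kb from the start, the authors' deposited table gave 80% in KO and 6.67% in WT (p = 0.0049, q = 1). Position 147372565, at 27.9 kb, had a smaller difference and a smaller p-value, with 76.5% 5hmC in KO and 16% in WT in the authors' deposited table (p = 0.000129, q = 0.42). Position 147388633, at 11.9 kb, had 54.5% in KO and 5% in WT, and position 147341558, at 58.9 kb, had 34.8% in KO and 0% in WT, in the authors' deposited table. The 4 lower 5hmC sites of Flt3 were alike in size, each at 0% in KO and between 26.9% and 33.3% in WT in the authors' deposited table. They alternated with the higher sites along the gene and formed no block. For 5mC, position 147354417 had 30% in KO and 0% in WT in the authors' deposited table (p = 0.00739, q = 1).

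Csf1r, the receptor gene for colony-stimulating factor 1 and interleukin-34, lies on chromosome 18 from 61105572 to 61131139. It held 5 listed 5hmC sites, 2 higher and 3 lower in KO, and 1 listed 5mC site, all with q = 1. The 3 lower sites stood together at the lower-coordinate end of the gene, 0.48, 1.61 and 2.05 kb from it. Their 5hmC levels were 0% in KO at all 3 and 28.6%, 33.3% and 17.5% in WT in the authors' deposited table (p = 0.00473, 0.00925 and 0.00347). The 2 higher sites lay further in, at 13.1 and 21.9 kb. They had 31.6% and 36.8% 5hmC in KO and 0% at both in WT in the authors' deposited table (p = 0.00832 and 0.000801), and both are also inside or near the gene Gm52352. At the 13.1 kb site, position 61118654, 5mC was 68.4% in KO and 100% in WT in the authors' deposited table (p = 0.00517).

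Pdgfrb, the receptor gene for platelet-derived growth factor B and D chains, lies on the same chromosome from 61045127 to 61085067. It held 11 listed 5hmC sites, 6 higher and 5 lower in KO, and 4 listed 5mC sites, 1 higher and 3 lower. Its 3 neighbouring sites at positions 61065725, 61065780 and 61065800, spaced 55 and 20 bp apart, were all lower in KO. Their 5hmC levels were 0% in KO at all 3 and 23.4%, 26.8% and 31% in WT in the authors' deposited table. The last of them had the smallest p and q of all 49 sites (p = 8.16e-05, q = 0.316, the authors' deposited table), and as sites that can share reads the 3 amount to a single place. The largest difference of the gene was at position 61047645, 2.52 kb from the lower-coordinate end, with 16.7% 5hmC in KO and 78.6% in WT in the authors' deposited table (p = 0.00483, q = 1). The 6 higher 5hmC sites ranged from 13.6% to 38.1% in KO and from 0% to 3.12% in WT in the authors' deposited table. Among 5mC sites, position 61055286 had 40% in KO and 90.9% in WT (p = 0.00226), and position 61051450 had 100% in KO and 81.6% in WT (p = 0.00319), in the authors' deposited table. The 4 listed 5mC sites of Pdgfrb were thus highly methylated in WT, at 81.6% to 97.2%, whereas 3 of the 5 listed sites of Flt3 were at 11.8% or less in WT in the authors' deposited table.

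Pdgfra, the receptor gene for several platelet-derived growth factor chains, and Kitl, the gene of KIT ligand, had few listed sites. Pdgfra lies on chromosome 5 from 75151322 to 75198206, next to Kit, and held 2 listed 5hmC sites and no listed 5mC site. Position 75149716, upstream of the gene at -2.54 kb from the transcription start, had 44.4% 5hmC in KO and 0% in WT, and position 75196888, near the other end of the gene, had 22.2% in KO and 0% in WT, in the authors' deposited table (p = 0.004 and 0.00657, q = 1 at both). Kitl lies on chromosome 10 from 100015615 to 100100416 and is the longest of the 6 genes at 84.8 kb. Its single listed site, at position 100054911, had 45.5% 5hmC in KO and 0% in WT in the authors' deposited table (p = 0.0087, q = 1). At 65.9% of protein-coding genes of the same length range there was at least 1 listed 5hmC site. The median in that range was 1 site per gene, but Kitl stands at the upper end of the range. Per 100 kb Kitl held 1.13 listed 5hmC sites, against 4.21 in that set of genes, and so had fewer for its length. Whether that density is unusual was not tested. The promoter segments of Kitl and Pdgfra hold 23 and 4 CpGs, and no listed site fell in either window.

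Positions listed for both marks made up 6 of the 12 5mC sites (50%) and 6 of the 37 5hmC sites (16.2%) of these genes. Over the whole tables, 12608 positions were listed for both marks, which is 23.7% of 5mC sites and 17.5% of 5hmC sites. At all 6 positions 5mC was lower and 5hmC higher in KO, the pattern of 71.5% of all shared positions. At 12594 of the 12608 shared positions (99.9%) the marks differed in opposite directions, so opposite signs at a shared position were not particular to these genes. How the authors computed the 5hmC levels, and whether both tables draw on the same libraries, is not stated in the labels or file headers. The p-values of both tables were equal to within a relative tolerance of 0.0001 at 945 shared positions of the series, and at none of these 6. Both marks at a shared position are therefore not treated as separate evidence. The sample titles number the 5mC libraries 1 and the 5hmC libraries 2, and no label says that the pair of libraries for a genotype shares cells or an animal. A sum of both levels below is therefore a sum of deposited values and need not be the total of a single sample.

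The 2 shared positions with the largest 5hmC differences also had the largest change in the sum of both marks. At Kit position 75599862, 24.9 kb from the start, 5mC was 6.67% in KO and 50% in WT and 5hmC 60% in KO and 5% in WT, in the authors' deposited tables. The sum of both levels there was 66.7% in KO and 55% in WT. At Flt3 position 147372565, 5mC was 15.8% in KO and 56.7% in WT, with the 5hmC levels given above, in the authors' deposited tables. Its sum was 92.3% in KO and 72.7% in WT, a difference of 19.59 points. At these 2 positions 5hmC was thus the larger part of the sum in KO and 5mC the larger part in WT.

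At the other 4 shared positions the sums differed less between genotypes, and 5mC was the larger part in KO and in WT. Csf1r position 61118654 summed to 100% in KO and in WT. Flt3 position 147330184, which lies 557 bp beyond the gene end opposite to the start, had 84.1% 5mC in KO and 100% in WT and 16.2% 5hmC in KO and 0% in WT, in the authors' deposited tables. Pdgfrb position 61049163 had 47.6% 5mC in KO and 90.5% in WT and 38.1% 5hmC in KO and 0% in WT, in the authors' deposited tables. Pdgfrb position 61056135 had 60% 5mC in KO and 97.2% in WT, with the smallest p of the 12 5mC sites (p = 0.000292, q = 1), and 32% 5hmC in KO and 3.12% in WT, in the authors' deposited tables. The sums at these Pdgfrb positions differed by -4.76 and -8.34 points. Over all shared positions the median absolute difference of the sums was 3.83 points, and the sum exceeded 101% in either genotype at 776 positions.

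**Figure D3:**
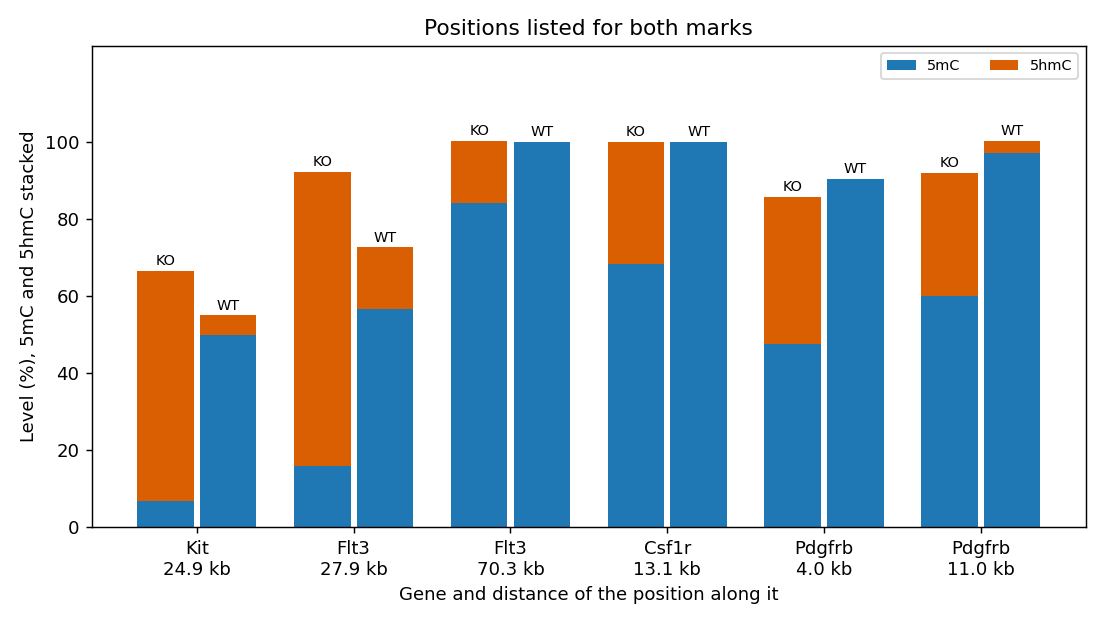
Levels of 5mC and 5hmC in percent, stacked, in KO (left bar) and WT (right bar) at the 6 positions listed for both marks, each labelled with its gene and its distance along it in kb, where both levels of a bar are deposited values that need not come from the same animal. 5hmC makes up more of the bar in KO at all 6 positions, and at the Kit position and at Flt3 27.9 kb it exceeds 5mC in KO.

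The limit of 2 kb decided the inclusion of few sites. Inside it but outside the genes lay Flt3 position 147330184, 557 bp beyond the gene end, and Pdgfra position 75149716, 1606 bp beyond. The nearest 5hmC sites left out were positions 75660755, 75660765 and 75660789 beyond Kit, the first of them 4033 bp beyond. They had 19.4%, 24.2% and 28% in KO and 0% in WT in the authors' deposited table. Next came a site 5086 bp beyond Flt3, with 0% in KO and 10% in WT in the authors' deposited table. With a limit of 5 kb there were 40 5hmC sites in place of 37, of which 60% were higher in KO in place of 56.8%. For 5mC, the nearest site left out was 7954 bp beyond Pdgfrb, with 90.3% in KO and 60% in WT in the authors' deposited table.

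Other ligand genes of these receptors, Flt3l, Csf1, Il34, Pdgfa, Pdgfb, Pdgfc and Pdgfd, also held sites of both directions. A listed 5mC site occurred in 6 of the 7, and 7 of the 11 sites were higher in KO. A listed 5hmC site occurred in all 7, and 17 of the 30 sites were higher. Over all genes and all listed sites, listed sites occurred in 42.3% of genes for 5mC and 49.6% for 5hmC, and 40.3% of 5mC sites and 64.4% of 5hmC sites were higher in KO. Flt3l, the gene of FLT3 ligand, had a 5mC site at 75% in KO and 12.5% in WT, and Pdgfd, a chain that binds PDGFRB, had a 5mC site at 100% in KO and 37.5% in WT, in the authors' deposited table. Pdgfa, a chain that binds PDGFRA, had a 5mC site at 35.3% in KO and 77.5% in WT in the authors' deposited table. The largest 5hmC differences were at Pdgfc (87.5% in KO and 8.33% in WT), Il34 (56.2% in KO and 5% in WT) and Pdgfb (46.7% in KO and 0% in WT) in the authors' deposited table. The smallest q-value among the ligand sites was 0.571.

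Genes of proximal signalling and of its negative regulators had no site with a q-value under 0.05. Of 26 proximal signalling genes, 20 held listed 5mC and 20 listed 5hmC sites, with 18 of 51 5mC sites and 53 of 91 5hmC sites higher in KO (35.3% and 58.2%, against 40.3% and 64.4% of all listed sites). Stat5b, a transcription factor activated by these receptors, had a 5mC site at 100% in KO and 15.4% in WT in the authors' deposited table. Plcg1, a phospholipase that docks on activated receptors, had a 5mC site at 0% in KO and 84.2% in WT and, elsewhere, a 5hmC site at 53.8% in KO and 0% in WT, in the authors' deposited tables. Sos2, a Ras exchange factor, had a 5mC site at 71.4% in KO and 0% in WT in the authors' deposited table. For 5hmC, the kinase gene Fyn had 58.3% in KO and 0% in WT, and Pik3r1, the regulatory subunit gene of PI3-kinase, had 0% in KO and 54.5% in WT, in the authors' deposited table. Of 16 negative regulators, 13 had listed 5mC and 11 listed 5hmC sites, with 12 of 26 5mC sites and 28 of 39 5hmC sites higher in KO (46.2% and 71.8%, against the same shares of all listed sites). The shares of genes with a site over the whole gene table are the 42.3% and 49.6% given above, and they are not matched to these lists on gene length. Ptpn6, the gene of the phosphatase SHP-1, had a 5mC site at 28.6% in KO and 91.7% in WT, and the adaptor gene Sla2 had a 5mC site at 69.2% in KO and 11.1% in WT, in the authors' deposited table. The largest 5hmC differences were at the ubiquitin ligase gene Cblb (62.5% in KO), at Nf1, which inactivates Ras (50% in KO), and at Spred2, an inhibitor of Ras signalling (44.4% in KO), each at 0% in WT in the authors' deposited table.

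Receptor kinases of other classes gave shares close to those of Kit, Flt3 and their relatives. Of 33 such genes 28 had listed 5mC and 31 listed 5hmC sites. Over all genes 42.3% had a listed 5mC site and 49.6% a listed 5hmC site, shares not matched to this list on gene length. In this list 42 of 117 5mC sites (35.9%) and 100 of 171 5hmC sites (58.5%) were higher in KO. Over all listed sites 40.3% of 5mC sites and 64.4% of 5hmC sites were higher. Ror2, a Wnt receptor gene, Met, the hepatocyte growth factor receptor gene, and Alk had the largest 5mC differences, with 0%, 20% and 16.7% in KO and 81.8%, 100% and 90.9% in WT in the authors' deposited table. Ret, the receptor gene for the GDNF family, Ror1, a relative of Ror2, and Alk had the largest 5hmC differences, with 100%, 70% and 66.7% in KO and 0% in WT in the authors' deposited table. The 5mC and 5hmC values of Alk stood at the same position, 71916159 on chromosome 17, and are not separate evidence. This list held 2 5hmC sites with a q-value under 0.05 (1.17%, against 1.08% of all listed 5hmC sites), named here because of that value. Ddr1, a collagen receptor gene, had 45.5% in KO and 0% in WT (q = 1.01e-07), and Igf1r, the insulin-like growth factor receptor gene, had 0% in KO and 46.4% in WT (q = 0.0365), in the authors' deposited table. Whether the class III receptor genes differ from these lists was not tested.

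**Figure D4:**
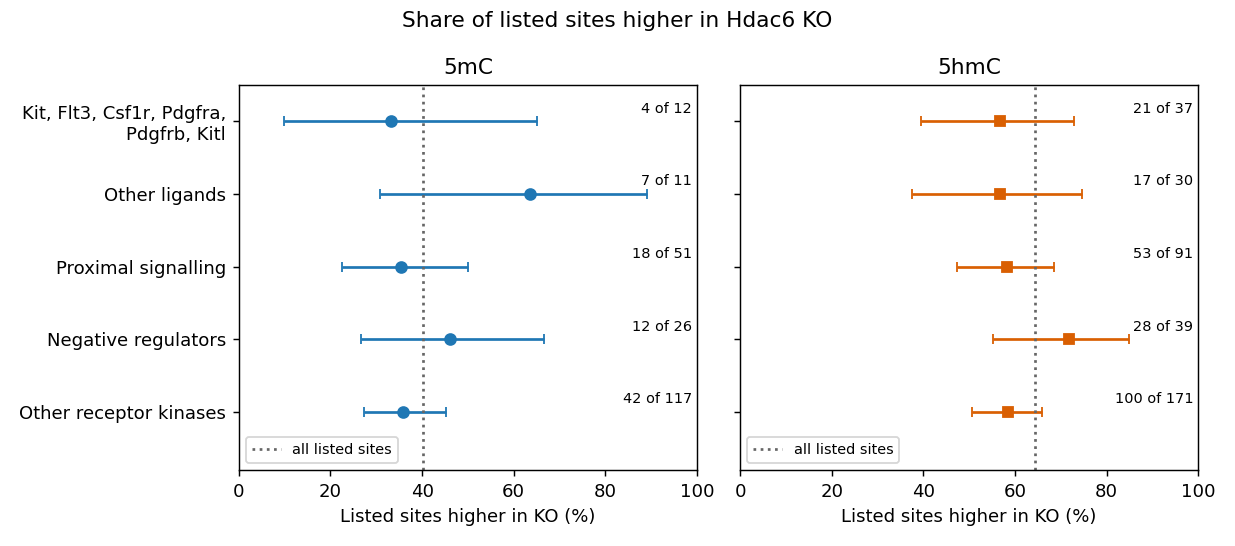
Share of listed sites higher in KO, in percent, for the 6 genes and for 4 lists of related genes, with exact 95% binomial intervals (counting error only) and the share over all listed sites as a dotted line; left, 5mC, right, 5hmC. The interval of each group includes the dotted line for both marks.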

How the data were processed

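5mC and 5hmC were measured in LSK cells with bisulfite and oxidative bisulfite libraries, 1 of each per genotype. Per the labels' protocols, sonicated DNA with a lambda spike-in was bisulfite-converted for Illumina sequencing. No label or header names the aligner, caller, test or coverage filter. The deposited levels are fractions from 0 to 1 per CpG, made by the authors and multiplied to percent here. The p-values and q-values were deposited by the authors. No count of reads was inferred and no test was added. Deposited differences equalled KO minus WT within 0.0001. All positions carry the plus strand and were treated as CpGs.

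Sites were assigned to 34610 RefSeq genes (21883 protein-coding, 12727 long non-coding) of GRCm38.p6 by position. For Kit, Flt3, Pdgfra and Kitl, strand and start came from RefSeq promoter windows. Promoter sequences were matched for these 4 genes. Intervals of shares are exact binomial at 95% and cover counting error only. The genes and lists were chosen with earlier results of these data known. In full were named the site with the largest difference and that with the smallest q per gene and mark, sites listed for both marks, and sites near gene ends or within 150 bp of each other; of each list, the 3 genes with the largest difference per mark, of which 1 is not reported here. Alternatives were other distances from the genes, stricter p, difference and q limits, levels off 0 and 100%, and merged neighbours. Assignment was tested on simulated data. Python 3.11.15, pandas 2.3.3, numpy 2.4.6, scipy 1.17.1 and matplotlib 3.10.9 were used.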

Additional observations from a re-analysis of the deposited data

How the results depend on the processing

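Each genotype and assay has 1 library and coverage is unknown, so neither the spread between animals nor the precision of a level can be given, and levels of exactly 0% or 100% may rest on few reads. No paired analysis was possible because each group holds 1 library and no test was run. The 58 recomputed values were counts, shares and medians for the 6 genes, and site counts for the lists of related genes. Of these, 51 stayed within 1.5 times the main count or within the interval of the main share or median. They include the counts of sites with q under 0.1 and 0.25, which could not move because the smallest q-value of the 6 genes was 0.316. None of the 58 changed to the opposite direction, but a 5hmC share of 50% has no direction. The interval of the main 5mC share was wide, 9.92 to 65.11%, so staying within it says little. Requiring p under 0.001 left 1 5mC site of the 12, which was lower in KO (0% higher). It left 12 5hmC sites of the 37, of which 50% were higher in KO, so no direction prevailed. Their median difference of 4.57 points falls between the higher and the lower sites and is the difference of no site. Leaving out sites with a level of exactly 0% or 100% in either genotype left 7 5mC sites, of which 14.3% were higher in KO in place of 33.3%, and 9 5hmC sites, with a median difference of 28.88 points in place of 16.22. Requiring a difference of at least 30 points left 21 5hmC sites, with a median difference of 33.33 points. Among the 12 5mC and 37 5hmC sites of the 6 genes, none had q under 0.1 or 0.25.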

Other observations

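Kit lies in a cluster of receptor kinase genes on chromosome 5, between Pdgfra and Kdr, the gene of vascular endothelial growth factor receptor 2, and distal elements that regulate Kit in mast and melanocyte lineages are known from the segments around it. These segments lie outside the rule above and were looked at after the values of the genes were known. The 372.8 kb between Pdgfra and Kit held 12 listed 5mC sites, 8 higher and 4 lower in KO, and 11 listed 5hmC sites, 9 higher and 2 lower, where 40.3% of all listed 5mC sites and 64.4% of all listed 5hmC sites were higher. The largest difference of that segment was in 5mC at position 75299627, with 12.5% in KO and 83.3% in WT in the authors' deposited table (p = 0.00453, q = 1). Its smallest q-value was in 5hmC at position 75519215, with 57.1% in KO and 0% in WT in the authors' deposited table (p = 0.000128, q = 0.418). Positions 75247167, 75247261 and 75247266 were each higher in 5mC, with 90.9%, 88.5% and 100% in KO and 44.4%, 52% and 70.4% in WT in the authors' deposited table. They lie within 150 bp of each other and may share reads, so the count of higher 5mC sites in this segment includes a single place more than once.

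The 272.1 kb between Kit and Kdr held 8 listed 5mC sites, 4 in each direction, and 18 listed 5hmC sites, 14 higher and 4 lower in KO, against the same shares of all listed sites. Whether the directions in either segment differ from those shares was not tested. Nearest to Kit stood 3 5hmC sites at positions 75660755, 75660765 and 75660789, with 19.4%, 24.2% and 28% in KO and 0% in WT in the authors' deposited table. These 3 lie within 150 bp of each other, as do the higher 5mC sites at positions 75832490 and 75832609. Such neighbours may share reads, and the counts of this segment include each of them separately. The smallest q-value of the segment was 0.272, at position 75702069, where 5hmC was 0% in KO and 37.5% in WT and 5mC was 97.4% in KO and 62.5% in WT, in the authors' deposited tables.

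On chromosome 18, the 16.5 kb between Pdgfrb and Csf1r held 2 positions listed for both marks, and both had the opposite pattern to the 6 shared positions of the receptor genes. The segment between Kit and Kdr also held positions listed for both marks. There, positions 75692588 and 75756114 had the pattern of those 6, with 5mC lower and 5hmC higher in KO, and position 75702069 had the opposite pattern. At chromosome 18 position 61093021, 5mC was 90.3% in KO and 60% in WT and 5hmC 0% in KO and 30% in WT, in the authors' deposited tables. At position 61096839, 5mC was 100% in KO and 82% in WT and 5hmC 0% in KO and 18% in WT, in the authors' deposited tables. Over all shared positions, 28.4% had higher 5mC and lower 5hmC in KO. None of the sites in these segments had a q-value under 0.25.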
